A study of Homo sapiens with 16 samples.

Results

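The genes described are the core and linker histone genes of the histone gene clusters, as measured in BT474 breast tumour xenografts in which the phosphatase SHP2 was depleted. Members were the genes whose current symbol is an H1 number or a cluster number of H2A, H2B, H3 or H4 (such as H1-4, H2AC20, H2BC14, H3C7 and H4C8; the older names begin with HIST1H, HIST2H or HIST3H) and that had an array probe set annotated to that symbol alone. This gave 58 of 18377 genes measured: 9 H1, 14 H2A, 16 H2B, 8 H3 and 11 H4 genes, each with 1 probe set. The large cluster on chromosome 6 held 49 of them, a cluster on chromosome 1 held 3, and another on chromosome 1 held 2. The remaining 4, H1-7, H1-8, H1-10 and H4C16, lie outside the clusters and are members by symbol only. A further 14 histone symbols were measured only by probe sets shared between genes and are not members, since genes of a class differ little in sequence.

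BT474 is an established human breast cancer line with amplified ERBB2 (HER2). It carried a doxycycline-inducible vector for 1 of 3 artificial microRNA hairpins, named CTRL miR, SHP2 miR1 and SHP2 miR2, so every group had the vector and received the drug. Cells were injected orthotopically, into a mammary fat pad of mice without full immunity, and once tumours had formed doxycycline (2 g per litre) was given in the drinking water until day 30. Total RNA of 6 tumours with CTRL miR, 7 with SHP2 miR1 and 3 with SHP2 miR2 was hybridised to HuGene-1_0-st-v1 arrays, 1 array per tumour. The labels do not tie tumours to animals, so p-values measure only the spread between these tumours. A tumour is a mixture of cells, and fewer cells of a type cannot be told apart from less RNA per cell. Control tumours 2 and 5 are given apart from controls 1, 3, 4 and 6 beside the results that turn on them. Their separation comes from earlier results on these arrays and is in no label.

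Histones package DNA. A nucleosome core holds paired H2A, H2B, H3 and H4, and H1 binds the linker DNA between cores. Most genes of the clusters are replication-dependent: they are transcribed mainly in S phase, have no introns, and give mRNAs that end in a stem-loop in place of a poly(A) tail. NPAT, a substrate of cyclin E and CDK2, drives their transcription, and SLBP binds the stem-loop for processing, export and translation. Their mRNA therefore usually follows the share of cells that are replicating DNA. The whole-transcript labelling used here does not rely on a poly(A) tail.

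PTPN11, the gene that encodes SHP2 and the target of both hairpins, was measured first as a check of the labels. Its log2 signal ranged from 8.23 to 8.61 (median 8.39) in the controls, with 8.23 and 8.28 in controls 2 and 5. It ranged from 6.59 to 7.18 (median 6.97) with miR1 and from 6.34 to 6.53 (median 6.52) with miR2. No SHP2 hairpin tumour overlapped a control. The differences from the controls were -1.47 ± 0.10 (SE) and -1.94 ± 0.12, with exact two-sided permutation p of 0.000583 and 0.0119, each the smallest that these group sizes allow. PTPN11 was also lower with miR2 than with miR1 (limma, adjusted p = 0.0115). Over all probe sets the arrays had medians of 5.21 to 5.41 and values of 1.54 to 13.63.

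The stretch just before the start of 8 members is shown because the members on which the results turn differ in these bases by histone class. The sequences are from RefSeq's promoter table (GRCh38.p14), 5′ to 3′ on the strand of the gene, 150 bases up to the base before the annotated start. Capitals mark 4 motifs on either strand: TATAAA (the TATA box), CCAAT (the CCAAT box), ATTTGCAT (the octamer) and AAACACA (the H1 box). Read on the other strand, TATAAA becomes TTTATA and CCAAT becomes ATTGG. The first pair are the H1 genes that fell most with miR2, at chr6:26156179-26156328 on the plus strand and chr6:27867589-27867738 on the minus strand.
H1-4: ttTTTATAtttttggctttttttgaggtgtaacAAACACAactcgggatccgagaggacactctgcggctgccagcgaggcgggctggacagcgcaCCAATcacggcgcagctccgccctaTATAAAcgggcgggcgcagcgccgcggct
H1-5: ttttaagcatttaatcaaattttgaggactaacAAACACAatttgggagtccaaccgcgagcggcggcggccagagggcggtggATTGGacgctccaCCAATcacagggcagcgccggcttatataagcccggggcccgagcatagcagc
H2BC14, at chr6:27814872-27815021 (plus), had the smallest p for miR1 against miR2, and H2BC7, at chr6:26199366-26199515 (plus), is another H2B gene that was higher with miR1 than with miR2.
H2BC14: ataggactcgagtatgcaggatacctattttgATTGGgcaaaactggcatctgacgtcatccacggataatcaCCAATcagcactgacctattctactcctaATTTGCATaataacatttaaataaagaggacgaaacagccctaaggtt
H2BC7: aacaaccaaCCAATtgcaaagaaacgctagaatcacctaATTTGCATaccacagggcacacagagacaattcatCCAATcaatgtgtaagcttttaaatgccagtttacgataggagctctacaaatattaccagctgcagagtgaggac
H2AC25, at chr1:228457874-228458023 (minus), and H2BC26, at chr1:228457953-228458102 (plus), make up the smaller chromosome 1 cluster, face away from each other, and share part of this stretch.
H2AC25: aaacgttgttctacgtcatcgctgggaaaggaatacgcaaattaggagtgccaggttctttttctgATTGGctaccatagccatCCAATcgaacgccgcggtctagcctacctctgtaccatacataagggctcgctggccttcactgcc
H2BC26: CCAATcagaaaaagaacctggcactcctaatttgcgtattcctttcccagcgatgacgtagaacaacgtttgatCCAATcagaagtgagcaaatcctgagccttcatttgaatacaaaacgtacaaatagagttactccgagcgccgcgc
H3C10, at chr6:27809901-27810050 (plus), fell with miR1, and H4C8, at chr6:26285535-26285684 (minus), rose with miR2.
H3C10: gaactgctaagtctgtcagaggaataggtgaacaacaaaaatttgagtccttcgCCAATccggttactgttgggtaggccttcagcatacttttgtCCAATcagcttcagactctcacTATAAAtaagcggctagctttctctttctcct
H4C8: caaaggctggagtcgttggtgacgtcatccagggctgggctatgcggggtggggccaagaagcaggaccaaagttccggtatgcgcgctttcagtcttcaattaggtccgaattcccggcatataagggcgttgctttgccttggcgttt

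Promoter entries were found for 53 of the 58 members, and the 250 bases before the start were searched in each. An H1 box stood in 7 of 9 H1 genes and in no entry of another class, against 4.82% of all 35116 entries in the table. An octamer stood in 10 of 13 H2A and 13 of 16 H2B genes and in none of the H1, H3 or H4 entries, against 1.63% of all entries. A CCAAT box was found in 8 of 9 H1, 13 of 13 H2A, 16 of 16 H2B, 6 of 6 H3 and 3 of 9 H4 genes, against 32.0% of all. TATAAA was found in 4, 10, 12, 4 and 5 of these genes, against 10.7% of all. The H1 box and the octamer thus followed class, while the other 2 motifs occurred in all 5 classes. TATAAA was in 10 of the 15 members with an entry that were called lower with miR2 and in 25 of the other 38, a CCAAT box in 15 and 31, an octamer in 6 and 17, and an H1 box in 3 and 4. Of the 18 called higher with miR1 than miR2, 10 had an octamer and 4 an H1 box, against 13 and 3 of the other 35. These shares mix motif with class and were not tested. The matches are letters in a window and were not tested as binding sites.

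Many histone genes were lower in the miR2 tumours than in the control or miR1 tumours. With miR2, 45 of 58 members lay below the controls and the median difference was -0.28 on the log2 scale, against 0.02 over all genes. The members' median was -0.18 after quantile normalization and -0.18 without miR2 tumour 3. With the dimmest genes left out (12251 kept) it was -0.35, against -0.11 over all genes kept. In limma's fit across all genes (a gene was called at a Benjamini-Hochberg adjusted p below 0.05), 16 members fell and 2 rose with miR2. Those 16 are 27.6% of the members, against 18.2% of all genes called lower, and the 2 are 3.45%, against 11.8% of all genes called higher. In either direction 30.0% of all genes were called, and the members' 18 calls are near that share. With miR1, 33 members lay above the controls, the median difference was 0.04 (0.02 over all genes), 2 members fell and none rose. That is 3.45% of members, against 3.38% of all genes called lower, and the background for higher calls was 1.38%. At an unadjusted p below 0.05 there were 15 members for miR1 and 28 for miR2. The share of all genes at an unadjusted p was not counted for any fit, so such counts have no background here. The 18 calls with miR2 became 8 without miR2 tumour 3, 11 without control 1 and 27 without control 5, where 13.01%, 21.97% and 42.1% of all genes were called. Quantile normalization turned the miR1 calls into 1 lower and 1 higher, and centring each array on its median gave 2 lower and 1 higher.

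With equal weight on both hairpins, 9 members fell and 1 rose, 15.5% and 1.72% of members against 13.1% and 5.52% of all genes. Their share of lower calls was thus near the background in that comparison. The 10 calls (18.6% of all genes were called in either direction) became 5 without miR2 tumour 3, 6 without control 1, 6 without control 4 and 17 without control 5. In these fits 12.0%, 11.7%, 13.1% and 31.0% of all genes were called. The calls became 7 lower with 2 higher after centring each array on its median. The direct comparison of the hairpins, whose differences use no control, gave 19 members higher with miR1 than with miR2 and none lower. That is 32.8% of members, against 14.3% of all genes called higher and 8.22% called lower. The median difference was 0.31, against -0.0042 over all genes, and 45 members were higher with miR1. With the dimmest genes left out the medians were 0.40 and 0.13. The controls do enter the estimate of spread behind the calls. A fit without them gave 25 members higher and 1 lower, where 29.2% of all genes were called in either direction. Without miR2 tumour 3 the 19 calls became 4, and without miR2 tumour 1 they became 11, where 7.13% and 9.03% of all genes were called in either direction (22.5% with all tumours). Of the 19, 15 lay above the controls with miR1 and below them with miR2, and 4 lay below the controls with both. There were 27 members called in at least 1 comparison and 31 in none. The 3 comparisons with controls share those controls, so their calls are not separate evidence.

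The tumours were also compared by whether the groups overlapped. Every miR2 tumour was below every control for 8 members (13.8%, near the 11.2% of all genes) and above for 1 (1.72%, against 6.55%). Every miR1 tumour was above every miR2 tumour for 15 members (25.9%, against 13.2%). With miR1, 1 member lay wholly below the controls (1.72%, against 0.555%). With both hairpins combined no member was separate from the controls (0.463% of all genes were).

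**Figure D1:**
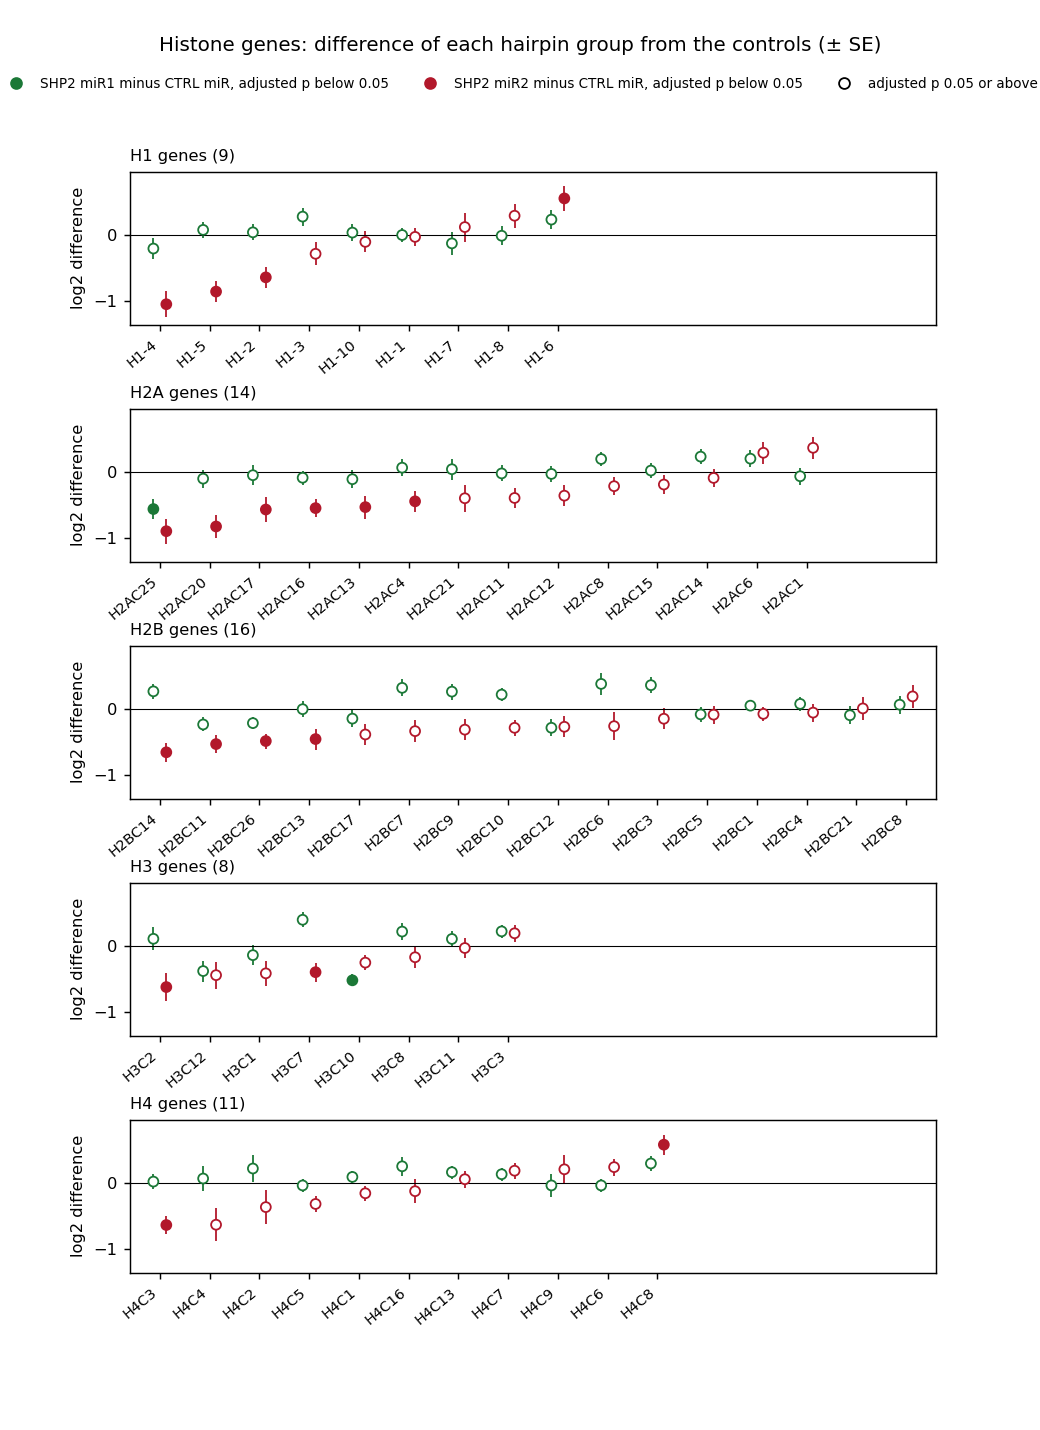
Difference of each of the 58 histone genes from the CTRL miR tumours (log2, y axis; bars are SE from limma), by histone class and ordered by the miR2 difference; green is SHP2 miR1, red is SHP2 miR2, and filled points have an adjusted p below 0.05. The red points reach -1.04 at H1-4, while the green points mostly lie near 0 and only H2AC25 and H3C10 are filled.

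With miR2 the 9 H1 genes ran from -1.04 to 0.55, the widest range of the 5 classes. Among the 9 H1 genes 3 fell with miR2 and 1 rose, and 4 were higher with miR1 than with miR2. Those called lower with miR2 were the somatic, replication-dependent subtypes H1-4, H1-5 and H1-2, and none of the 9 was called with miR1.

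H1-4 (H1.4, chr6:26156329-26157115, GRCh38.p14) had the largest fall. Its log2 signal ran from 10.004 to 10.99 (median 10.83) in the controls, 10.15 to 10.62 (median 10.42) with miR1, and was 9.77, 9.67 and 9.27 in the miR2 tumours. The lowest controls were numbers 2 and 5, at 10.004 and 10.11, while controls 1, 3, 4 and 6 lay between 10.75 and 10.99. All 3 miR2 tumours were below every other tumour. The difference with miR2 was -1.04 ± 0.19 (SE), 48.5% of the control signal (limma, adjusted p = 0.000881). With miR1 it was -0.21 ± 0.15 (adjusted p = 0.535). Against controls 2 and 5 alone the miR2 difference was -0.48 and missed the threshold (adjusted p = 0.0975).

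H1-5 (H1.5, chr6:27866792-27867588) kept its call with controls 2 and 5 alone. Its signal ran from 7.36 to 8.23 (median 7.63) in the controls, with 7.69 and 7.57 in controls 2 and 5. It ran from 7.63 to 7.98 (median 7.72) with miR1, and was 6.96, 6.97 and 6.58 with miR2. The miR2 tumours lay below all others, and the miR1 tumours lay within the range of the controls. The miR2 difference was -0.85 ± 0.15 (limma, adjusted p = 0.000666) against all controls and -0.79 (adjusted p = 0.00485) against controls 2 and 5 alone. Between the hairpins, miR1 exceeded miR2 by 0.93 ± 0.15 (adjusted p = 0.00034), and 0.89 higher (adjusted p = 0.00631) within array set B, 9 arrays that include 3 controls, 3 miR1 and all miR2 tumours.

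H1-2 (H1.2) fell with miR2 by 0.64 on the log2 scale (limma, adjusted p = 0.00505), with 4.86, 4.86 and 4.45 in the miR2 tumours against 5.03 to 5.66 in the controls. Its miR1 values, from 5.20 to 5.68, overlapped the controls and no miR2 tumour. H1-3 (H1.3) was called only between the hairpins, where miR1 exceeded miR2 by 0.56 ± 0.17 (adjusted p = 0.0237); the miR1 tumours ran from 5.58 to 6.64 and the miR2 tumours were at 5.44, 5.39 and 5.16.

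Of the other 5 H1 genes 1 was called against the controls. H1-6, the testis-specific H1t, rose with miR2 (0.55 ± 0.18; limma, adjusted p = 0.0324), although its miR2 tumours were at 4.15, 5.46 and 5.01 and the first lay below all controls (4.18 to 4.50). H1-10 (H1.X), which lies outside the clusters and is not tied to replication, had 6.96 to 7.75 in the controls, 7.07 to 7.55 with miR1, and 7.01, 7.18 and 7.41 with miR2. Its groups overlapped, and the miR2 difference was -0.11 ± 0.16 (adjusted p = 0.617). H1-1, H1-7 and H1-8 were not called in any comparison, with miR2 differences of -0.03, 0.12 and 0.29.

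Of the 14 H2A genes 6 fell with miR2 and none rose, 1 fell with miR1, and 4 were higher with miR1 than with miR2. H2A forms a dimer with H2B on the outside of the nucleosome core. The 6 were H2AC25, H2AC20, H2AC17, H2AC16, H2AC13 and H2AC4, with miR2 differences from -0.89 to -0.44.

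H2AC25, the H2A gene of the smaller chromosome 1 cluster (chr1:228457364-228457873), was the member that fell with each hairpin. In log2 signal it ran from 5.21 to 6.14 (median 5.80) in the controls, from 4.77 to 5.52 (median 5.20) with miR1, and was 4.59, 4.96 and 4.86 with miR2. Controls 2 and 5, at 5.21 and 5.27, lay among the miR1 tumours, and the other 4 controls (5.74 to 6.14) lay above all SHP2 hairpin tumours. The difference was -0.56 ± 0.15 with miR1 (limma, adjusted p = 0.0329) and -0.89 ± 0.19 with miR2 (adjusted p = 0.00198). Against controls 2 and 5 alone it was -0.10 (adjusted p = 0.945) and -0.44 (adjusted p = 0.191). The call with miR1 was kept under 14 alternatives and lost under 15, among them quantile normalization (adjusted p = 0.0702) and leaving out any of controls 1, 3, 4 and 6 or of miR1 tumours 1, 2, 4, 5, 6 and 7 (0.0524 to 0.0951). In several of the 14, such as leaving out a miR2 tumour, the difference could not change.

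H2AC20, of the larger chromosome 1 cluster (chr1:149886918-149887411), had the next largest H2A fall. Control values ran from 8.42 to 9.40 (median 9.35), with 8.89 and 8.42 in controls 2 and 5. It ran from 8.83 to 9.18 (median 8.99) with miR1, and was 8.47, 8.25 and 8.20 with miR2. The miR2 tumours lay below every miR1 tumour, and 1 of them lay above control 5. The miR2 difference was -0.82 ± 0.17 (limma, adjusted p = 0.00229), and -0.34 (adjusted p = 0.251) against controls 2 and 5 alone. H2AC21, its neighbour, had 8.88 to 9.90 in the controls, 9.14 to 9.72 with miR1, and 9.18, 9.15 and 8.70 with miR2. Those groups overlapped and it was not called (-0.40 ± 0.20, adjusted p = 0.134). A probe set shared by H2AC20 and H2AC21 with H2AC18 and H2AC19 was not called with miR2 (-0.37, adjusted p = 0.0515). Between the hairpins that set was 0.15 higher with miR1 (adjusted p = 0.432).

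H2AC16 fell with miR2 without overlap, at 6.11, 6.20 and 5.83 against 6.33 to 6.77 in the controls (-0.55 ± 0.13; limma, adjusted p = 0.00585). H2AC15, which lies in the same stretch of chromosome 6, did not pass the test (7.77, 7.91 and 7.52 against 7.56 to 8.29; -0.19 ± 0.14, adjusted p = 0.307). H2AC1, the testis-specific H2A gene, was the member that leaned furthest towards miR2 in the comparison of hairpins. It was at 3.60, 3.55 and 3.81 with miR2 and at 2.91 to 3.57 with miR1, a difference of -0.43 ± 0.16 that missed the threshold (adjusted p = 0.0564).

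Of the 16 H2B genes 7 were higher with miR1 than with miR2 and none was lower, a share like that of the H1 genes (4 of 9). With miR2 4 fell against the controls, H2BC14, H2BC11, H2BC26 and H2BC13, and with miR1 none was called.

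H2BC14 (chr6:27815022-27815489) had the smallest adjusted p between the hairpins among all members. Its signal ran from 7.99 to 8.68 (median 8.43) in the controls, from 8.54 to 8.81 (median 8.63) with miR1, and was 7.81, 7.98 and 7.38 with miR2. The miR2 tumours were below every other tumour, and the miR1 tumours lay in and just above the upper part of the control range. The level was 0.92 ± 0.14 higher with miR1 than with miR2, or 189% of it (limma, adjusted p = 0.000207). The miR2 difference from the controls was -0.65 ± 0.14 (adjusted p = 0.00297). Controls 2 and 5, at 8.42 and 8.44, lay in the middle of the controls, and against them alone the difference was -0.71 (adjusted p = 0.0123).

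Other H2B genes split in the same manner with smaller differences from the controls. H2BC7 was at 8.09 to 8.48 with miR1 and at 7.70, 8.03 and 7.15 with miR2, a difference of 0.65 ± 0.16 (limma, adjusted p = 0.00772) without overlap, and neither hairpin differed from the controls (7.71 to 8.38) past the threshold. H2BC10, H2BC9, H2BC6 and H2BC3 were 0.50, 0.57, 0.64 and 0.50 higher with miR1 than with miR2. None of these 5 genes was called against the controls, which lay between the hairpin groups in mean.

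H2BC26, which points away from H2AC25, fell with miR2 (-0.48 ± 0.11; limma, adjusted p = 0.00442). Its signals were 4.76, 4.92 and 4.89 with miR2, 5.01 to 5.24 with miR1 and 5.05 to 5.58 in the controls. All miR2 tumours were below all others. H2BC11 fell with miR2 as well (-0.53 ± 0.13, adjusted p = 0.00699), at 5.26, 5.41 and 4.86 against 5.35 to 5.92, with 1 miR2 tumour inside the control range. H2BC12, a gene that can also give a polyadenylated mRNA, was not called (-0.27 ± 0.16 with miR2, adjusted p = 0.196); its miR2 tumours were at 7.77, 7.69 and 7.04 and its controls at 7.61 to 8.01.

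**Figure D2:**
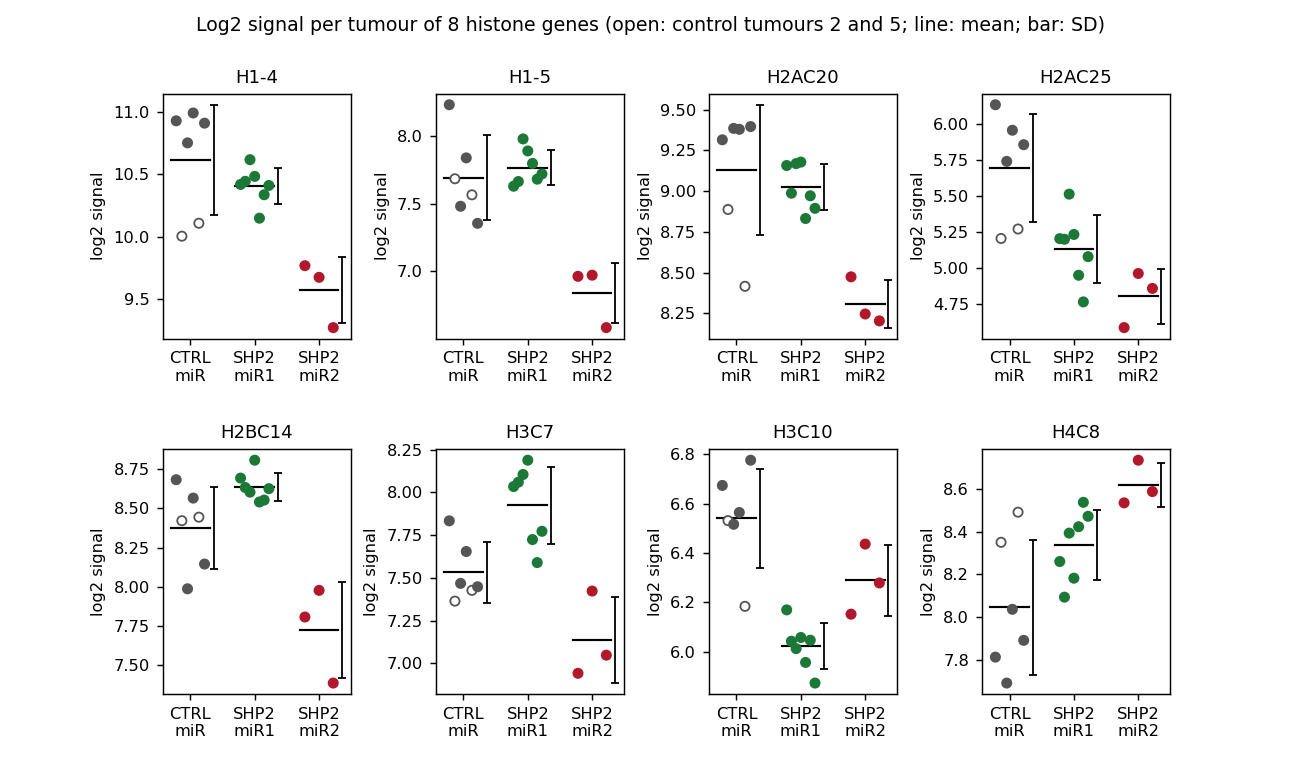
Log2 signal of 8 histone genes in each tumour (y axis) by hairpin group (x axis); points are tumours, open points are control tumours 2 and 5, the line is the group mean and the bar is ± 1 SD. H1-5 and H2BC14 have all miR2 tumours below every other tumour, H1-4 and H2AC25 have controls 2 and 5 apart from the other controls, and H4C8 runs in the opposite direction.

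Of the 8 H3 genes 2 fell with miR2, H3C7 and H3C2, and 1 fell with miR1, H3C10. The genes of the chromosome 6 cluster encode H3.1, the form deposited during replication. H3C7 (chr6:26250142-26250635) moved in opposite directions with the hairpins. Its signal ran from 7.36 to 7.83 (median 7.46) in the controls, from 7.59 to 8.19 (median 8.03) with miR1, and was 6.94, 7.42 and 7.05 with miR2. The miR1 and miR2 tumours did not overlap, and each overlapped the controls. The level was 0.79 ± 0.14 higher with miR1 than with miR2 (limma, adjusted p = 0.000888). Against the controls the differences were 0.39 ± 0.11 with miR1, just short of the threshold (adjusted p = 0.0525), and -0.40 ± 0.14 with miR2 (adjusted p = 0.0455).

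H3C10 (chr6:27810051-27810536) was the member that stood out with miR1. Its signal ran from 5.87 to 6.17 (median 6.04) with miR1 and from 6.18 to 6.78 (median 6.55) in the controls, and was 6.15, 6.44 and 6.28 with miR2. All 7 miR1 tumours were below every control, although control 5, at 6.18, was close to the highest of them. The difference was -0.52 ± 0.09 with miR1 (limma, adjusted p = 0.00592) and -0.25 ± 0.12 with miR2 (adjusted p = 0.099). Against controls 2 and 5 alone, at 6.53 and 6.18, the miR1 difference was -0.33 and missed the threshold (adjusted p = 0.688). It also missed it within array set B (-0.55, adjusted p = 0.318) and within the other 7 arrays, set A (-0.50, adjusted p = 0.174). In these smaller fits only 1 and 10 of 18377 genes were called for miR1, and both differences were close to that over all arrays. A probe set shared between H3C10 and H2AC13 was called with each hairpin, at -0.39 with miR1 (adjusted p = 0.0233) and -0.34 with miR2 (adjusted p = 0.0404). Between the hairpins that set differed by -0.05 (adjusted p = 0.747).

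H3C2 fell with miR2 (-0.62 ± 0.22; limma, adjusted p = 0.0379) with wide and overlapping groups, at 6.04, 6.54 and 5.75 against 6.15 to 7.05. In controls 2 and 5 it was at 6.31 and 6.15, below the other controls (6.87 to 7.05), and against those 2 alone the difference was -0.12 (adjusted p = 0.807). H3C8 was not called, at 6.34, 7.06 and 6.64 with miR2 against 6.36 to 7.11 (-0.17 ± 0.16, adjusted p = 0.426).

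Most H4 genes encode the same protein. Of the 11 measured here 1 fell with miR2, 1 rose, and the other 9 were not called. H4C3 (chr6:26103933-26104337) fell with miR2. Its signal ran from 7.59 to 8.04 (median 7.98) in the controls, from 7.65 to 8.25 (median 7.97) with miR1, and was 7.29, 7.53 and 7.05 with miR2. The miR2 tumours lay below all others (-0.63 ± 0.14; limma, adjusted p = 0.00293). Against controls 2 and 5 alone the difference was -0.52 (adjusted p = 0.133).

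H4C8 (chr6:26285126-26285534) rose with miR2. Control tumours ran from 7.69 to 8.49 (median 7.96) and miR1 tumours from 8.09 to 8.54 (median 8.39), and the miR2 tumours were at 8.54, 8.74 and 8.59 with miR2. All miR2 tumours lay above all controls (0.58 ± 0.15; limma, adjusted p = 0.00946). It was the 1 member that rose with both hairpins combined (0.43 ± 0.12, adjusted p = 0.0135). Controls 2 and 5, at 8.35 and 8.49, were the highest controls, and against them alone the miR2 difference was 0.20 (adjusted p = 0.493). H4C5 was not called with miR2 (7.25, 7.76 and 7.59 against 7.72 to 8.06; -0.32 ± 0.12, adjusted p = 0.0527). H4C4 was called between the hairpins (0.69 ± 0.24 higher with miR1, adjusted p = 0.0431), with overlapping groups.

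The calls depended on which controls were used. Controls 1, 3, 4 and 6 had a higher mean than controls 2 and 5 for 37 of 58 members, and lay wholly above both for 17 and wholly below both for 6. The median difference over members was 0.12 (range -0.58 to 0.84). These counts and this median were not computed over all genes, so they have no background here. All 9 members that fell with both hairpins combined had the higher mean in controls 1, 3, 4 and 6, by 0.10 to 0.84. They were called against a mean that includes those controls. That choice favours members high in them, so this is not separate evidence. With controls 2 and 5 alone, none of the 58 was called for both hairpins (0.751% of all genes were) and none for miR1 (0.136% of all genes). For miR2 there were 2, H1-5 and H2BC14 (3.45%, against 4.37%). At an unadjusted p below 0.05 these fits gave 3, 9 and 10 members, with no share of all genes counted beside them. Such a fit has 2 controls in place of 6, and the part of that smaller number in the fewer calls was not tested. The direct comparison of hairpins keeps its differences under this choice. Its calls became 23 higher and 1 lower, where 27.5% of all genes were called in either direction.

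**Figure D3:**
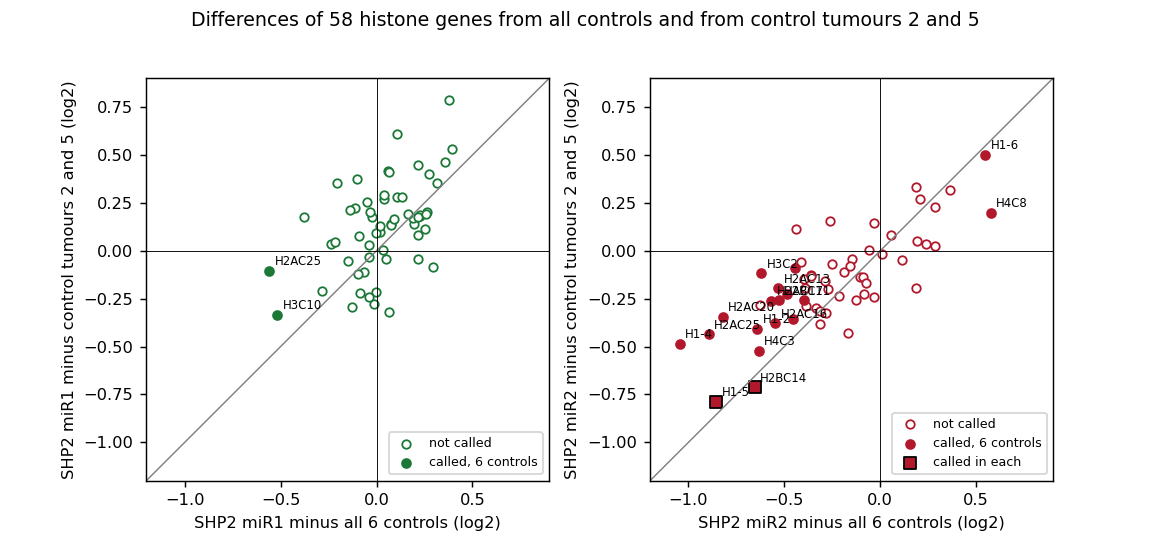
Difference of each of the 58 histone genes from control tumours 2 and 5 (log2, y axis) against its difference from all 6 controls (log2, x axis), for SHP2 miR1 (left) and SHP2 miR2 (right); the diagonal marks equality. Filled points were called against 6 controls and squares also against controls 2 and 5; H1-5 and H2BC14 lie near the diagonal, while H1-4 moves from -1.04 to -0.48 and H3C2 from -0.62 to -0.12.

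Array sets also bear on the calls. The mean of 5 small noncoding RNAs (RMRP, RPPH1, SNORA65, RNU4-1 and RNU4-2) split the arrays into a set A of 7 (controls 1 to 3 and miR1 tumours 1 to 4) at 8.19 to 8.39 and a set B of 9 (the others, with all miR2 tumours) at 6.81 to 7.21. The labels do not give these sets. Within miR1, set A tumours were higher than set B tumours by a median of 0.13 over members (range -0.52 to 0.84, the highest at H4C2). With the set as a block 15 members were called for miR2 (25.9%, against 24.9% of all genes), of which 12 were among the 18 called without the block. Between the hairpins the block left 12 (20.7%, against 13.7%), with 10 of the 19. Within set B alone 12 members were called for miR2 (20.7%, against 13.9%; 10 shared) and 4 between the hairpins (6.90%, against 5.29%; 3 shared, H1-5, H2BC14 and H3C7). These shares count both directions. H2AC21, the fourth in set B, was 0.70 higher there with miR1 than with miR2 (limma, adjusted p = 0.0278), and 0.44 over all arrays.

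Calls were also counted by gene structure. The members whose annotated gene spans over 1000 bases, H1-7, H1-8, H1-10 and the H2B genes H2BC4, H2BC5, H2BC12 and H2BC21, number 7, and none was called in any of the 4 comparisons. Such genes have introns or longer ends, and the 4 H2B genes are known to give polyadenylated mRNA as well. Among the H2B genes the median difference between hairpins was -0.0055 for these 4 and 0.47 for the 12 shorter ones, 7 of which were called. This split was made with the values known and was not tested.

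Neighbouring genes were compared in pairs. In the clusters 9 pairs of an H2A and an H2B member start 215 to 248 bases apart and point away from each other. Against the controls 8 of the 9 pairs had differences of the same sign with miR1 and 5 with miR2. Between the hairpins 5 of the 9 did, in none were both genes called, and in 4 pairs 1 gene was called. With miR2 against the controls both genes fell in 2 pairs, H2AC25 with H2BC26 and H2BC13 with H2AC13, and 1 gene was called in 4 pairs. H2BC14 and H2AC14 show the contrast: H2BC14 was 0.92 higher with miR1 than with miR2, and H2AC14 was 0.32 higher and not called (limma, adjusted p = 0.0906). The 25 measured non-histone genes listed around the chromosome 6 cluster had a median miR2 difference of -0.03, with 4 higher and 5 lower. These counts are near the 11.8% and 18.2% of all genes called higher and lower with miR2. Among the 25, ABT1, a nucleolar transcription factor, fell with miR2 (-0.90, limma, adjusted p = 0.000233). CMAHP, a pseudogene of sialic acid hydroxylase, rose with miR1 (0.88, limma, adjusted p = 0.000717).

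Many of the listed genes for DNA replication, histone mRNA production and histone transport fell with miR2. Over all genes, 18.2% were called lower with miR2 and 11.8% higher. The 44 S phase genes (the replication fork, origin licensing, nucleotide synthesis and their regulators) had 34 lower and none higher, with a median of -0.69, against -0.28 for the histone genes. For example MCM6, a subunit of the replicative helicase, fell by 1.12 on the log2 scale (limma, adjusted p = 5.83e-05), and CCNE1, which encodes cyclin E1, also fell by 1.12 (adjusted p = 9.37e-05). None of the 44 was called with miR1, where 4.76% of all genes were. Of the 44, 32 were higher with miR1 than with miR2 (median 0.59), against 14.3% of all genes. Against controls 2 and 5 alone 3 of the 44 were called lower with miR2, where 4.37% of all genes were called in either direction. All 3 miR2 tumours had a lower mean over the S phase list than every other tumour. Over the histone genes miR2 tumours 1 and 3 had the lowest means. Tumour 2 (5.98) lay just above control 5 (5.96). By the median over the histone genes, miR2 tumour 2 (6.25) lay within the range of the controls (5.99 to 6.33). In the histone genes and the S phase list alike, miR2 tumour 2 had the highest mean of the 3 miR2 tumours.

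The 24 factors for histone mRNA production and decay had 13 lower and none higher with miR2 (median -0.33), and 1, LSM11, lower with miR1. The shares of all genes called lower were 18.2% with miR2 and 3.38% with miR1. LSM11, a protein of the U7 snRNP that cuts the 3′ end of histone pre-mRNA, was at 5.73 ± 0.27 (SD, n = 6) in the controls, 5.33 ± 0.18 (n = 7) with miR1 and 4.92 ± 0.12 (n = 3) with miR2. It fell with miR1 (limma, adjusted p = 0.0473) and with miR2 (adjusted p = 0.000666). NPAT fell with miR2 (-0.70 ± 0.18, adjusted p = 0.00744), and in controls 2 and 5 it was at 6.36 and 6.05 against a mean of 6.70 over all 6. CASP8AP2 (FLASH), its partner in the histone locus body, fell with miR2 (-0.46 ± 0.15, adjusted p = 0.0265). SLBP was not called in any comparison (-0.12 ± 0.10 with miR2, adjusted p = 0.371). None of the 24 was called against controls 2 and 5 alone, where the miR2 median was -0.18 and 4.37% of all genes were called for miR2.

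Histone chaperones, which carry histones to DNA, had none of 26 called with miR1. With miR2 16 were lower, against 18.2% of all genes, and none higher (median -0.53). For example MMS22L, a partner of the H3-H4 reader TONSL at forks, fell by 0.94 (limma, adjusted p = 0.00199), and NCL (nucleolin) fell by 0.60 (adjusted p = 0.00119). None of the 26 was called against controls 2 and 5 alone (miR2 median -0.23), where 4.37% of all genes were called for miR2. Of 10 histone variant genes outside the member rule 2 fell with miR2, H2AX (-0.51, limma, adjusted p = 0.00552) and H2AZ1 (-0.64, limma, adjusted p = 0.0103), and none rose. Those 2 of 10 are near the 18.2% of all genes called lower. The lists overlap, since MCM2 stands in the S phase and chaperone lists and SLBP in the S phase and supply lists.

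**Figure D4:**
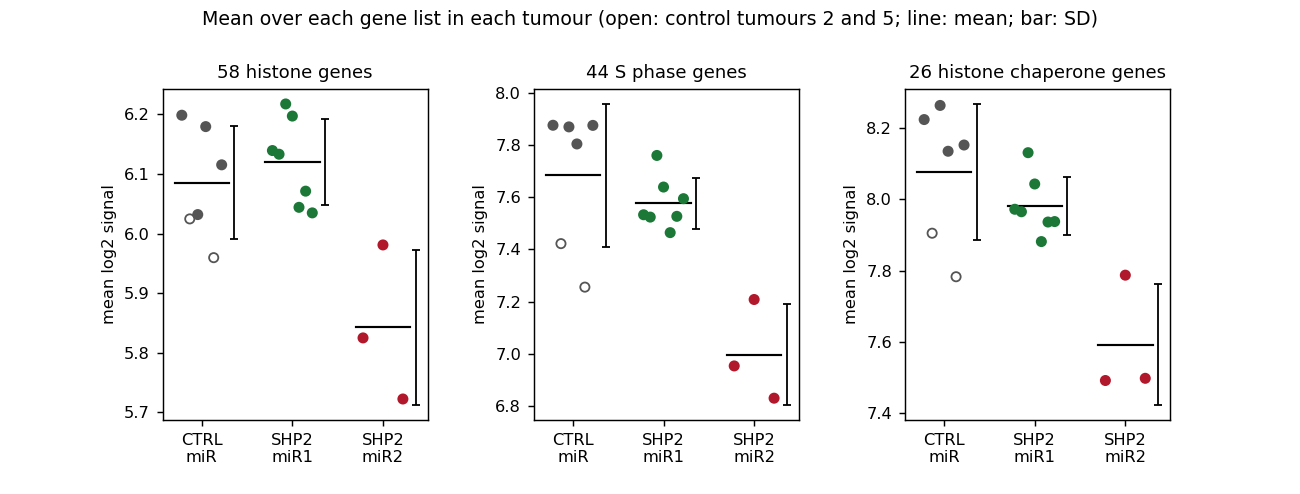
Mean log2 signal over the 58 histone genes (left), 44 S phase genes (middle) and 26 histone chaperone genes (right) in each tumour (y axes), by hairpin group; open points are control tumours 2 and 5, the line is the group mean and the bar is ± 1 SD. All miR2 tumours lie below the miR1 tumours in each panel, and controls 2 and 5 are the lowest controls in each.

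Some markers of other cells moved with miR2 as well, on an array of human probes in tumours with a mouse host. Across all genes, 11.8% were called higher with miR2 and 18.2% lower. Of 7 macrophage markers 6 were higher with miR2 and none lower, and the list's mean per tumour ran from 4.26 to 4.69 in the controls, 4.50 to 4.69 with miR1 and 4.69 to 5.22 with miR2. Of 8 fibroblast markers 5 were higher and 1 lower with miR2 (5.20 to 5.44 in the controls, 5.63 to 5.65 with miR2). In other host lists 1 of 7 endothelial, 1 of 5 lymphocyte and 1 of 4 adipocyte markers were higher with miR2. So were 1 of 5 skeletal muscle and 1 of 2 erythroid markers, and none of these lists had a lower call. PTPRC, which defines leukocytes, had a control mean of 3.21, under the lower quartile of every array (3.72 to 4.04), and a miR2 mean of 3.86. Of 11 luminal and BT474 markers 3 were higher and none lower with miR2, GATA3 by 1.01 (limma, adjusted p = 5.42e-05). Against controls 2 and 5 alone 1 macrophage and 1 fibroblast marker were higher with miR2, and of the luminal markers 2 were higher and 1 lower. That fit called 4.37% of all genes for miR2. ERBB2 had group means of 10.95, 11.14 and 11.22. The part of host cells in the histone differences was not tested.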

How the data were processed

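The deposited table holds log2 signals of 28869 probe sets on 16 arrays; the log2 scale was read from the values. The submitters' processing notes name R 2.10 and oligo 1.8. How background, normalization and summary were done is not given in the sources used here. Probe sets with 1 symbol (19310) were kept, the brightest per gene, with no filter on low signal, and 18377 genes were tested. Probe genes came from the platform annotation, updated through RefSeq. A linear model with 3 groups and no covariate was fitted with limma 3.58.1 (R 4.3.3; 13 residual degrees of freedom), with Benjamini-Hochberg adjustment over all genes. Each fold is on the log2 scale. The fit was tested on simulated data. Alternatives were another normalization, filter, cluster rule, prior, weights, replicate block, array set, control choice and leaving out each array. The members, gene lists, markers and the control and array divisions were chosen with earlier results of these data known. Members given with full values are the 3 brightest of each class, the 6 with the smallest p in each comparison and the extremes; others were added after their values were seen. The number of arrays limits the precision.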

Additional observations from a re-analysis of the deposited data

Results flagged for a closer look

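Over 116 groups of 6 or 7 tumours (the control and miR1 groups of 58 members), 7 held a tumour set apart from the rest of its group by a gap that was large against the group's range (Dixon's 95% value); about 1 in 20 groups is expected to do so by chance. Control 5 was low for H2BC6 at 5.64 (the nearest other control was at 6.60) and for H4C3 at 7.59. Control 2 was high for H2BC9 at 7.07, and control 6 was high for H4C13 at 3.81. Among the miR1 tumours, number 3 was high for H1-3 at 6.64 and for H2BC9 at 7.67, and number 4 was high for H2BC13 at 6.18.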

How the results depend on the processing

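Counts of called members are given for both hairpins, miR1, miR2 and miR1 against miR2, in that order; the reported counts were 10, 2, 18 and 19. With array weights they were 22, 9, 29 and 29, and of all genes 38.3%, 18.3%, 48.3% and 39.1% were called. Over 12 same-number pairs of tumours the correlation of deviations ran from -0.42 to 0.37, and 5 of 16 arrays matched their own number best. The 5 of 12 over 0.1 joined control and miR1 tumours 1, 2, 3, 5 and 6 (0.21 to 0.37), each pair within 1 array set. Control 4 and miR1 tumour 4, which lie in different sets, gave -0.30. Pairing by number and array set cannot be told apart in these values. The replicate block gave 12, 1, 23 and 29, where 21.1%, 4.05%, 39.5% and 36.9% of all genes were called. With only the groups compared, miR1 gave 2, miR2 gave 11 and miR1 against miR2 gave 26. In these fits 4.04%, 18.3% and 29.2% of all genes were called. Leaving out 1 array in turn gave 5 to 17, 1 to 4, 8 to 27 and 4 to 25. Alternatives chosen with the results known were controls 2 and 5 alone (0, 0 and 2 against the controls), the array set as a block (miR1 4, and 12 between the hairpins), set A alone (miR1 0, with 10 at an unadjusted p below 0.05) and set B alone (1, 0, 12 and 4). For miR1 the block called 6.67% of all genes and set A alone 0.0544%. Set B alone called 1.67%, 0.00544%, 13.9% and 5.29% of all genes. Quantile normalization, median centring, a filter on low signal, shared probe sets and a trended robust prior kept each count within 1.5 times. Quantile normalization changed which genes were called, with 14 of the 18 miR2 calls and 14 of the 19 hairpin calls shared. Between the hairpins it gave 18 higher and 2 lower with miR1, where 15.8% of all genes were called. The mean of a gene's probe sets could not change the members' values, since each has 1 probe set. Shared probe sets add entries and leave the members' own differences unchanged. Of 556 values for 20 results on named members under all alternatives, 517 kept their side of the threshold, 39 fell short of it and none reversed; 12 of the 39 came with controls 2 and 5 alone, 10 with set B alone and 2 with set A alone. The 517 include 20 with the mean of probe sets and 20 with shared probe sets, where the differences could not change. The filter on low signal, the trended robust prior and the fits of only the groups compared also left the differences as they were. So did leaving out an array of a group outside the comparison. The 20 results were picked for the smallest adjusted p in each comparison, which favours keeping their side. PTPN11 kept its call in all 57. The cause of these changes was not tested, and the smaller fits have fewer arrays.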

Other observations

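Probe sets shared between histone genes were left out of the members and add a few calls. The set shared by H2BC15 and H2AC15 fell with miR2 (-0.75; limma, adjusted p = 0.0024) and was higher with miR1 than miR2 by 0.70 (adjusted p = 0.00432). The set shared by H3C4 and H2AC7 fell with miR2 (-0.48, adjusted p = 0.00672). Of 2 sets shared by H4C11 and H4C12, 1 was higher with miR1 than miR2 by 0.55 (adjusted p = 0.039) and the other by 0.47 (adjusted p = 0.0553). The 4 sets shared by H3C13, H3C14 and H3C15 gave miR2 differences of -0.23, -0.10, -0.27 and -0.45, of which the last passed the threshold (adjusted p = 0.0297). Sets shared by H4C14 with H4C15, by H3C6 with H3C11, and by H2AC18, H2AC19, H2AC20 and H2AC21 were not called in any comparison. A set that 2 or more genes share cannot say which of them changed.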
